A study of Mus musculus with 8 samples.

Results

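Mouse lung explants kept with IQ1 for 24 h were compared with explants kept with IQ1 for 9 h, over every gene with a name on the array. The comparison uses 4 of the 8 arrays of the series, 1 at 24 h and 3 at 9 h, and 24304 genes, each represented by its brightest spot over the 8 arrays. All lungs came from C57BL/6J embryos at E12.5, were homogenised as whole organs, and had been cultured on filters in medium with 10% fetal bovine serum. The treated explants received IQ1 at 10 µM, a small molecule that reduces the binding of β-catenin to its coactivator EP300, and the labels of these samples also speak of FGFR2b inhibition. Untreated explants, 3 arrays at 9 h and 1 at 24 h, serve below as a second pair of time points. Their vehicle is PBS by the labels, although DMSO was the solvent of IQ1 by the study's methods. The culture times belong to separate experiments, and only the 24 h lungs are stated to be pooled, so time in culture, experiment and pooling cannot be told apart. A whole organ mixes epithelium, mesenchyme, vessels, mesothelium and blood, and fewer cells of a type cannot be told apart from less RNA per cell.

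At this stage the lung is a branching epithelial tree in a growing mesenchyme. SOX9-positive tips bud and divide, FGF10 from the mesenchyme drives their outgrowth, and Wnt signals reach the nucleus through β-catenin, which binds TCF/LEF factors and recruits either EP300 or CBP. Explants in culture also live on the lipid, hormone and growth factor supply of the serum, to which sterol synthesis and the immediate early genes are both known to respond.

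Levels are quantile-normalized log2 intensities, so 1 unit is a doubling and every array has the same distribution. The yardstick is the spread of the 3 arrays at 9 h. The 24 h array correlated with them at a Pearson r of 0.954, 0.972 and 0.967 over all spots, and they correlated with one another at 0.967 to 0.978. The 24 h array correlated at 0.975 with the 24 h control array. Control replicate 2 at 9 h stood apart, with r between 0.583 and 0.602 to every other array, and does not enter any control value below.

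With limma's moderated test over all genes, 0 of 24304 genes (0%) differed between 24 h and 9 h at an adjusted p under 0.05, and the smallest adjusted p was 0.195. At an unadjusted p under 0.05 the test listed 1129 genes as higher (4.65%) and 976 as lower (4.02%). The single 24 h array is assumed to vary as the 9 h arrays do, which left 2 residual degrees of freedom. An exact permutation test of 1 array against 3 cannot go below p = 0.25. The differences below are therefore values set against the 9 h spread, and no gene of the 4-array fit is said to have changed. The same fit with an intensity trend and a robust prior called 21 genes higher and 33 lower, and with dim genes left out it called 1 higher and 6 lower. With 7 arrays sharing the spread it called 1 higher and 1 lower.

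As a description, a gene was counted when its 24 h value lay at least 1 log2 unit outside all 3 values at 9 h. This held upward for 549 genes (2.26%) and downward for 443 (1.82%), and without replicate 2 at 9 h for 1287 and 845. Among the 12152 genes brighter than the median gene, 116 lay that far above and 192 that far below. Simply lying above all 3 arrays held for 29.2% of genes and lying below all 3 for 30.1%, which is the background for the weaker counts given with each gene group.

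Next, the 12 genes with the lowest and the 12 with the highest test statistic among the brighter genes were taken, and they fell into a few kinds. Lipid synthesis was among the lower ones. Scd1, the stearoyl-CoA desaturase that makes monounsaturated fatty acids, read 9.59, 8.28 and 8.74 at 9 h and 4.04 at 24 h, a difference of -4.84 ± 0.56 (SE, 1 array against 3). Insig1, which holds the sterol sensor SCAP in the endoplasmic reticulum, read 9.20, 8.54 and 8.53 against 5.96, or -2.79 ± 0.42. The 24 h values of both genes lay far below every 9 h value.

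Sftpc, the surfactant protein C gene and the best known transcript of distal lung epithelium, read 9.70, 9.35 and 9.30 at 9 h and 6.78 at 24 h, a difference of -2.67 ± 0.36 with an adjusted p of 0.349. The 9 h values lay close together, and the 24 h value was well below them. Lrat, the enzyme that stores vitamin A as retinyl ester, read 9.57, 9.35 and 9.38 against 5.80. Rgs5, a G-protein regulator typical of pericytes, read 10.85, 11.09 and 11.25 against 8.43. Both were below their 9 h arrays by more than 2 log2 units.

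The remaining genes of low statistic were Ifi204 (-4.44), Sycp1 (-4.95), Hbb-b1 (-3.54), Cwc22 (-3.49), Dusp16 (-3.36), Gatm (-2.55) and Myo6 (-2.34). Ifi204 belongs to an interferon-inducible family, Sycp1 encodes a protein of the meiotic synaptonemal complex, and Cwc22 a splicing factor. Ifi204 had the smallest adjusted p, 0.195, with 10.46, 10.54 and 10.34 at 9 h and 6.00 at 24 h. Dusp16 encodes a phosphatase that acts on JNK and p38, Gatm the first enzyme of creatine synthesis, and Myo6 an unconventional myosin.

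On the higher side, 4 of the 12 genes belong to the immediate early list described below. Fosb, an AP-1 subunit, read 6.64, 7.49 and 6.66 at 9 h and 10.74 at 24 h, a difference of 3.81 ± 0.47. Ccn1, a secreted matrix protein induced by YAP and serum response factor, read 9.01, 8.51 and 8.29 against 11.77. Nr4a1, an orphan nuclear receptor, read 7.53, 7.06 and 6.88 against 10.16, and Egr2, a zinc finger factor, 8.37, 8.03 and 7.88 against 10.75. Each of these 4 genes was more than 2 log2 units above its highest 9 h array.

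Slc25a17, a peroxisomal carrier, had the highest statistic, with 9.89, 9.78 and 9.88 at 9 h and 13.56 at 24 h, a difference of 3.71 ± 0.33 and an adjusted p of 0.253. The others were Cxadr (2.53), the adenovirus receptor of tight junctions, 4930402D18Rik (2.45), Slc16a9 (2.39), Klhl32 (2.25), Mgmt (2.15), a DNA repair enzyme, Dppa5a (2.54), a pluripotency-associated RNA-binding protein, and Itgal (1.98), the integrin αL chain of leukocytes. All 24 genes lay at least 1.75 log2 units outside the 9 h range. In all 24 the control arrays differed between 24 h and 9 h in the same direction, with the 24 h control outside both 9 h controls.

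**Figure D1:**
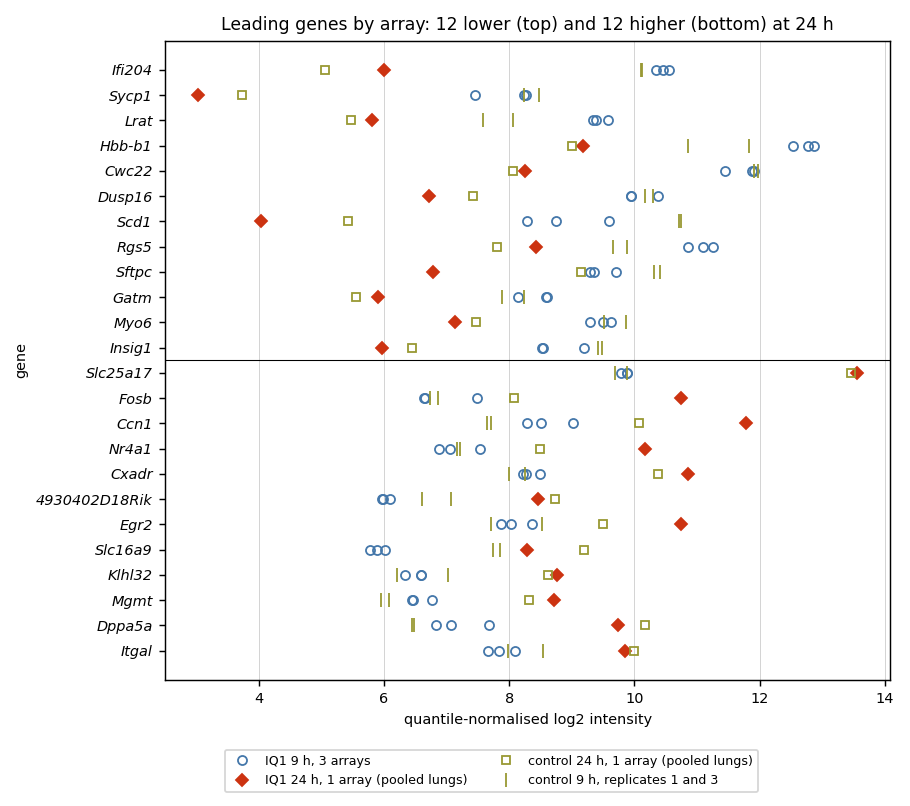
Quantile-normalized log2 intensity (x axis) of the 12 genes with the lowest and the 12 with the highest moderated statistic among the brighter genes (y axis), with 1 symbol per array. The 24 h diamond lies at least 1.75 log2 units outside the 3 circles of the 9 h arrays in every row, and the open 24 h control square lies on the same side of its 9 h marks.

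Probes of the same gene did not always give the same difference. Of the 24 genes, 12 had more than 1 spot, and in 6 of these all spots lay outside the 9 h range on the same side. All 5 Cwc22 spots were lower, by 1.22 to 3.49, and both Ifi204 spots were, at -4.44 and -5.20. For Dusp16, 1 of 3 spots was lower and the highest spot difference was 0.29, for Gatm the other spot gave 0.52, and for Mgmt -0.48. The dimmer Fosb spot, with a mean of 3.78, gave -0.25. Slc25a17, Sycp1, Lrat and Sftpc had a single spot each.

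Sterol synthesis was the gene group set apart most. Cells build cholesterol from acetyl-CoA through mevalonate and squalene, and the enzymes are transcribed together under SREBF2 when membrane sterol is low. Of 20 measured members 19 lay below all 3 arrays at 9 h and 16 of them by at least 1 log2 unit, against 1.82% of all genes. The median difference was -1.64, whereas the medians of the single 9 h arrays deviated from their mean by -0.16 to 0.20, and over all genes the median difference was -0.01. By the unadjusted test 16 members were lower and 0 higher.

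The lower members spanned the pathway from its start to its end. Hmgcs1, which makes the precursor of mevalonate, read 13.64, 13.42 and 13.74 at 9 h and 11.69 at 24 h. Mvd, which decarboxylates mevalonate diphosphate, read 9.81, 9.30 and 9.35 against 6.96, and Fdps, the farnesyl diphosphate synthase, 10.31, 9.77 and 9.62 against 7.86. Past squalene, Sqle, the epoxidase, read 11.52, 11.31 and 11.53 against 10.01, and Hsd17b7, a late ketoreductase, 9.38, 9.10 and 9.35 against 7.02. No 24 h value of these 5 enzymes reached a 9 h value.

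The differences of the other enzymes lay between -2.08 for Nsdhl and -1.46 for Lss, with Msmo1 at -1.86, Idi1 at -1.71, Dhcr7 at -1.66, Cyp51 at -1.61, Sc5d at -1.56 and Fdft1 at -1.47. Stard4, a sterol carrier, was at -1.82. Smaller differences were read for Pmvk, a mevalonate kinase of the next step (-0.82), for Srebf2 itself (-0.57) and for Ebp, the sterol isomerase (-0.18). The second spots of Srebf2 and Ebp read lower, at -1.3 and -1.1, while that of Pmvk was at -0.2. The exception was Mvk, the mevalonate kinase, whose brightest spot read 0.17 higher and lay within the 9 h range. The second, dimmer Mvk spot read -2.02, and with the mean of all spots 20 of 20 members were lower.

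**Figure D2:**
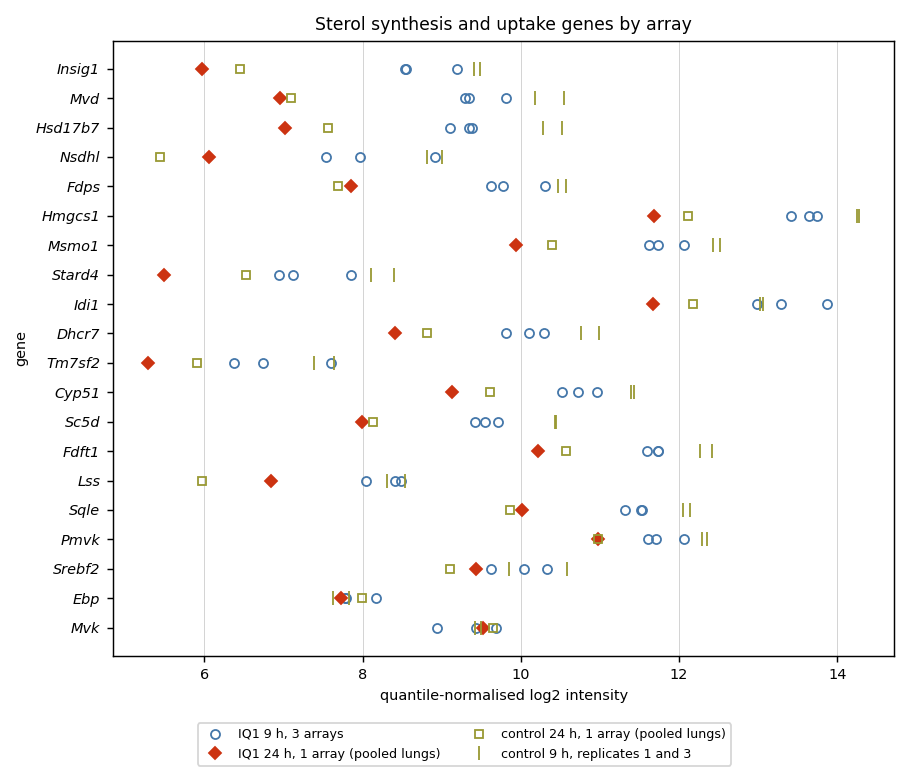
Quantile-normalized log2 intensity (x axis) of the 20 sterol synthesis and uptake genes (y axis, ordered by the difference with IQ1), with 1 symbol per array. The 24 h array (diamond) lies left of all 3 arrays at 9 h (circles) for 19 genes, and the 24 h control (square) lies near it.

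The promoters of 5 of these genes are shown because their levels were low together at 24 h. CCAAT, read on both strands, is the box bound by NF-Y, a factor known to act beside SREBF2, and it is in capitals (ATTGG where it lies on the other strand). The sequences are from RefSeq, build GRCm38.p6, 5′ to 3′ on the strand of the gene, and each ends at the base before the annotated start. They lie at chr5:28071162-28071411 (+, Insig1), chr13:119690161-119690350 (+, Hmgcs1), chr8:122443423-122443542 (-, Mvd), chr1:169969206-169969385 (-, Hsd17b7) and chr13:8885486-8885605 (+, Idi1).
Insig1: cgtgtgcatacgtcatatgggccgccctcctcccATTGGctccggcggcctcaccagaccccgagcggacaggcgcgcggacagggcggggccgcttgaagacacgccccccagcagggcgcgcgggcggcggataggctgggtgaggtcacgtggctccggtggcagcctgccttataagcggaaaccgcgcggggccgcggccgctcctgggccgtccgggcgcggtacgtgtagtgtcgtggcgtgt
Hmgcs1: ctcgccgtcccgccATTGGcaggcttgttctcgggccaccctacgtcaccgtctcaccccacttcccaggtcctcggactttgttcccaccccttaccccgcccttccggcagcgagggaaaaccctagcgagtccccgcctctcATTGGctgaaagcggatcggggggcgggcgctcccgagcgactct
Mvd: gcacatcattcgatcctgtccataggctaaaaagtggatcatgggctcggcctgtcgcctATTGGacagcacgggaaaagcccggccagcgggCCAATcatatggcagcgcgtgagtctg
Hsd17b7: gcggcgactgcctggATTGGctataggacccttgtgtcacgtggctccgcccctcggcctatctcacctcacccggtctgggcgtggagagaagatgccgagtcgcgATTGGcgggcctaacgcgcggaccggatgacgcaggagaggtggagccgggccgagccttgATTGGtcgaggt
Idi1: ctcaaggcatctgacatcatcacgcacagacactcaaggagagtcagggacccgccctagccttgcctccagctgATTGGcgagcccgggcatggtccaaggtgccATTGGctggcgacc

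Windows of 250 bases before to 50 after the start were at hand for 16 of the 20 genes, and CCAAT was in all 16, compared with 41.1% of the 27025 genes with a window. The sterol element letters TCACNCCAC were in 1 of 16 (1.4% of all genes), CACNCCAC, which lies within it, in 2 (7.1%) and the form with a further A in front of TCACNCCAC in 0 (0.3%). In the windows shown, the box begins 216 bases before the start of Insig1, 176 and 45 before Hmgcs1, 60 and 27 before Mvd, 165, 73 and 12 before Hsd17b7, and 45 and 14 before Idi1. A match describes the letters only.

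Genes of fatty acid metabolism split. The lower members included Scd1 at -4.84, Scd2 at -1.68, Fasn, the fatty acid synthase, at -1.54, Elovl6, an elongase, at -1.31, and Acly, which supplies acetyl-CoA, at -1.22. Fabp4, a fatty acid carrier, read 6.67, 6.63 and 6.59 at 9 h and 3.62 at 24 h. The higher members included Cd36, Cpt1a and Plin2. Cd36, a fatty acid transporter, read 6.71, 5.89 and 5.52 against 9.85, Cpt1a, the entry to mitochondrial oxidation, differed by 1.06 and Plin2, a lipid droplet coat protein, by 0.84. Acaca, which makes malonyl-CoA for fatty acid synthesis, was at 0.38 and above all 9 h arrays. Of 16 members, 7 lay above and 8 below all 9 h arrays, 4 by at least 1 log2 unit below and 1 above. Without replicate 2 at 9 h, 6 lay that far below, and without replicate 1, 2 lay that far above. The median was -0.18, and with the mean of all spots -0.58.

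The immediate early genes, which are transcribed within minutes of serum, stretch or injury without new protein, formed the second group. Of 27 measured, 19 lay above all 3 arrays at 9 h, 10 of them by at least 1 log2 unit, compared with 2.26% of all genes, and 1 lay below. The median difference was 0.94, with single 9 h arrays between -0.12 and 0.19. By the unadjusted test 14 were higher and 0 lower. Without replicate 2 at 9 h, 21 lay above and 6 below the remaining arrays.

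Among the AP-1 subunits, Fosb (3.81) and Fos (6.08, 5.93 and 5.08 against 9.05) were far above their 9 h arrays, and Jun (8.26, 8.01 and 8.47 against 9.18) was moderately so. Junb and Jund differed by 0.15 and 0.01 and lay within the 9 h range, as did Fosl2 at 0.02. Fosl1 was dim and read 3.96, 3.59 and 5.44 against 2.95. Thus the higher levels did not extend to all members of the complex.

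All 4 early growth response factors read higher, Egr1 at 11.53, 11.73 and 11.73 against 13.50, Egr2 as above, Egr3 at 6.07, 6.06 and 4.68 against 8.16 and Egr4 at 4.40, 5.17 and 5.03 against 6.95. Atf3, a stress-induced repressor, read 5.68, 4.23 and 5.36 against 8.60, a difference of 3.51 ± 0.62. Dusp1, the phosphatase that turns off stress kinases, read 8.58, 8.21 and 8.47 against 10.18. Nr4a2 differed by 1.33 and Ccn2 by 1.19, the latter within 0.29 of the highest 9 h array. Myc (0.92), Klf4 (0.94), Ier2 (0.95) and Zfp36 (0.87) were also above all 9 h arrays. Klf2 and Ier5 lay within the range.

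**Figure D3:**
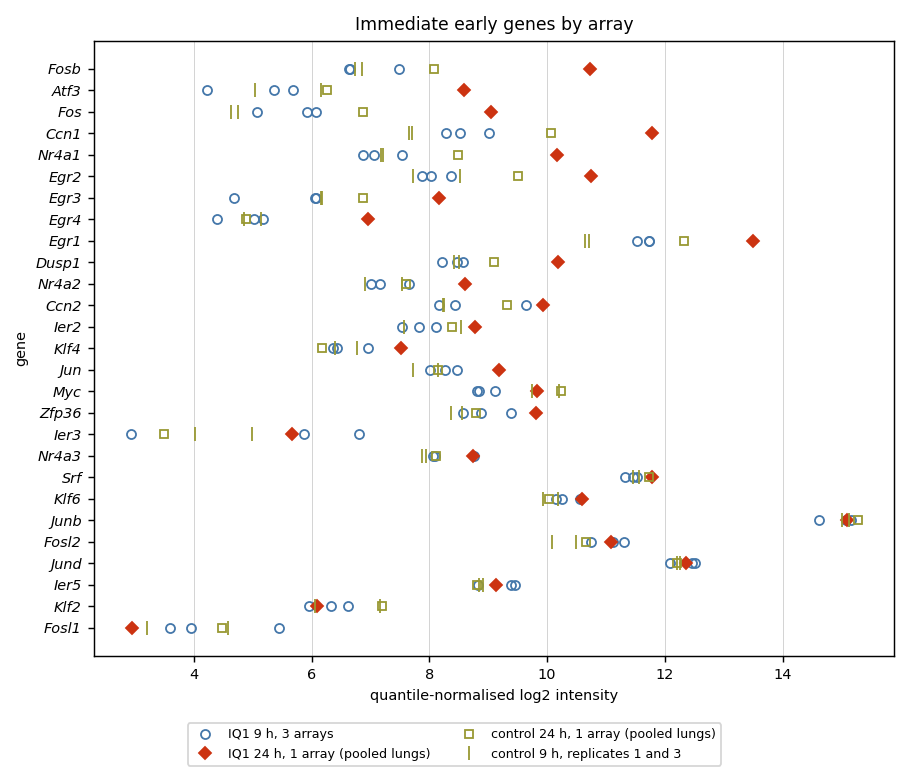
Quantile-normalized log2 intensity (x axis) of the 27 immediate early genes (y axis, ordered by the difference with IQ1), with 1 symbol per array. The 24 h IQ1 array (diamond) lies right of the 3 circles at 9 h for 19 genes, and for Fosb, Atf3 and Egr4 also right of the 24 h control (square).

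The promoters of Fosb, Ccn1, Nr4a1 and Fos are shown with TGACG in capitals (CGTCA on the other strand). These are the core letters to which CREB and ATF factors bind. The genes shown are examples that all hold the letters. Their 24 h values lay over 2 log2 units above the 9 h range, as did those of Egr2, Egr3 and Atf3, which are not shown. The windows, from RefSeq on GRCm38.p6 and each ending at the base before the start, lie at chr7:19310046-19310195 (-, Fosb), chr3:145649986-145650135 (-, Ccn1), chr15:101266696-101266845 (+, Nr4a1) and chr12:85473740-85473889 (+, Fos).
Fosb: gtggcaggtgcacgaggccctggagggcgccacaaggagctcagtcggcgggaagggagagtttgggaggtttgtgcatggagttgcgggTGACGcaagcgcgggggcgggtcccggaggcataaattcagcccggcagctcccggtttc
Ccn1: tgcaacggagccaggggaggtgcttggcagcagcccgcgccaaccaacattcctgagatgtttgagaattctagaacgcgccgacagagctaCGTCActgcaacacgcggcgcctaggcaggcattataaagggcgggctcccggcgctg
Nr4a1: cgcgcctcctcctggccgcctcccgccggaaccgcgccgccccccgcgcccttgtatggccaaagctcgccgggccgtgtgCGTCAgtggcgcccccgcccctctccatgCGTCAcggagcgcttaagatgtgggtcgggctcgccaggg
Fos: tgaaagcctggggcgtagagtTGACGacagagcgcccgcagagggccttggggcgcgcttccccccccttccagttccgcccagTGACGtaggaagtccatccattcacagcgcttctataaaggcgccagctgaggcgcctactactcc

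Of the 21 immediate early genes with a window, 14 held TGACG on either strand, compared with 23.0% of all genes with a window. The CArG box of serum response factor was in 3 (1.8% of all genes) and the palindrome TGACGTCA, which contains TGACG, in 1 (2.0%). These 7 motifs were chosen after the levels were known.

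Macrophage and leukocyte transcripts read higher as a group. Of 18 measured, 12 lay above all 9 h arrays and 0 below, but 1 did so by at least 1 log2 unit, and the median difference was 1.02 with single 9 h arrays between -0.17 and 0.20. Adgre1, a surface receptor of mature macrophages, read 7.06, 7.09 and 6.89 against 8.79. C1qc, C1qb and C1qa, the complement C1q chains, differed by 1.40, 1.26 and 1.06, Cx3cr1, the fractalkine receptor, by 1.24, Trem2 by 1.21 and Cd68 by 0.99. Csf1r, the receptor on which macrophages depend, read 13.04, 13.65 and 13.76 against 13.55 and lay within the 9 h range, as did Ptprc and Aif1. By the unadjusted test 9 members were higher and 0 lower. With the mean of all spots of a gene the median was 0.66, and without replicate 1 at 9 h 5 members lay at least 1 log2 unit above, or 3 without replicate 2 or 3.

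Mesenchymal regulators read lower. Of 19 members, 15 lay below all 9 h arrays and 0 above, with a median difference of -0.55 and single 9 h arrays between -0.16 and 0.24. In controls the median of these genes was -0.27, and 14 of the 19 were lower at 24 h both with IQ1 and in controls. Tbx3, a T-box repressor of the early lung bud, read 9.26, 9.21 and 9.20 against 7.76, the only member at least 1 log2 unit outside, where leaving out replicate 2 gave 4. Pdgfra, the receptor of fibroblast progenitors, differed by -0.86, Tbx5, which is needed for lung specification, by -0.83, Foxf1, a Hedgehog target, by -0.56, Tcf21 by -0.55, Fgf10 by -0.48 and Tbx4 by -0.32. The Hox genes of the foregut and lung went the same way, with 9 of 11 below all 9 h arrays and a median of -0.82. Hoxa2 was at -1.54, Hoxb5, which patterns the airways, at -1.20, and Hoxa5, the member best known in the lung, at -0.14 and within the range.

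Smooth muscle genes went the other way. Of 16 contractile genes, 14 had a positive difference and 9 lay above all 9 h arrays, with a median of 0.60. Tagln read 10.46, 10.51 and 10.46 against 11.49, Cnn1, calponin, 10.01, 9.35 and 9.97 against 10.77, Myl9 11.15, 10.83 and 11.25 against 11.94, and Acta2, smooth muscle actin, 12.78, 12.89 and 13.15 against 13.59. Myh11 lay within the 9 h range. Pgm5, which is not a contractile protein itself but sits at adhesion plaques, was lower by 0.96. No member lay a full log2 unit outside the range of the 3 arrays, and 2 did without replicate 2. In controls the median of these genes was 0.00. The cardiac muscle list had a median of 0.54 with IQ1 and 0.06 in controls, with 6 of 12 genes above and 2 below all 9 h arrays, among them Nppa at 0.93, Myl4 at 0.92 and Actc1 at 0.75. Its median was 0.24 with the mean of all spots and 0.36 without replicate 2. The part of cardiac transcripts in the smooth muscle values was not tested.

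The defining epithelial markers lay within their 9 h ranges. Epcam read 10.04, 10.28 and 11.30 against 10.38 and Nkx2-1, the lung lineage factor, 10.35, 10.76 and 11.35 against 10.65, both within the range. Cdh1 was dim, at 4.07 to 5.83 against 4.57. Over 20 epithelial genes the median difference was 0.07, 4 lay above and 1 below the 9 h arrays. The median was -0.09 without replicate 1, where 6 lay above and 4 below, -0.03 without replicate 2, where 4 lay above and 3 below, and 0.29 without replicate 3, where 12 lay above and 1 below. Among the other surfactant and lamellar body genes, Lamp3 differed by -0.18, and Sftpb (0.16) and Abca3 (0.25) were dim and within their 9 h ranges.

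Genes of the distal tip were divided. Sox11 (-1.37), Irx1 (-1.27), Bmp4, a ligand made by the tip (-0.93), and Sox9 (9.23, 8.76 and 9.39 against 8.25) lay below all 9 h arrays. Etv4, a direct FGF target, read 9.67, 10.83 and 10.45 against 11.38, and Id2, Fgfr2 and Spry2 differed by 0.45, 0.32 and 0.47, all above the 9 h range. Etv5 at 0.18 was within it. Over 15 members 5 lay above and 8 below, 1 of them by at least 1 log2 unit, or 5 without replicate 1, and the median was -0.44 with single 9 h arrays between -0.27 and 0.19. Members of the FGF10 signature that the study's text names, 30 of them measured, had a median of 0.17, with 12 above and 6 below. The study chose that list from lungs in which FGF10 signaling was blocked, so it is not an unselected list. Of the 30 members, 19 were brighter than the median gene. Lin7a read 3.74, 3.61 and 3.52 at 9 h with IQ1, and Sftpa1 3.48, 3.36 and 3.29. These values were near the lowest on the arrays, 2.49, so a further fall of such genes could hardly be read.

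Wnt targets are of interest because IQ1 acts on β-catenin. Lef1, a nuclear partner of β-catenin and itself a target, read 7.01, 8.05 and 7.70 at 9 h and 5.54 at 24 h, a difference of -2.05 ± 0.49. Sp5, a target in many tissues, read 5.00, 4.54 and 4.45 against 3.32, below the median gene throughout. Axin2, a feedback inhibitor of the pathway, read 6.79, 5.83 and 6.12 against 5.97, within the range, and so did Ccnd1. Notum, a secreted Wnt inactivator, read 10.45, 10.70 and 10.66 against 11.13. Of 15 targets 6 lay below and 3 above all 9 h arrays, 2 by at least 1 log2 unit below. The median was -0.27, and without replicate 2 it was -0.41 with 9 below.

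Proliferation genes differed by less than 1 log2 unit from the 9 h range in nearly all cases. Of 19 genes of G2 and mitosis, 13 lay below all 9 h arrays, with a median of -0.39 and a 9 h range of -0.07 to 0.06. Ccnb2, a mitotic cyclin, was at -1.16, Cenpf at -0.74 and Aurka at -0.72, whereas Mki67 (0.15), Top2a (0.06) and Aurkb (0.52) were not lower. Genes of S phase had a median of 0.09, with 7 of 20 above and 3 below all 9 h arrays. Pcna, at 1.46 with IQ1 and 1.33 in controls, was the only 1 of them at least 1 log2 unit outside the 9 h range. The zinc and copper binding metallothioneins Mt1 (10.93, 11.12 and 10.75 against 12.19) and Mt2 (12.12, 12.35 and 12.28 against 13.69) both lay at least 1 log2 unit above the 9 h arrays. In controls they were higher at 24 h as well, Mt1 by 1.81 and Mt2 by 2.51, compared with 1.26 and 1.44 with IQ1.

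**Figure D4:**
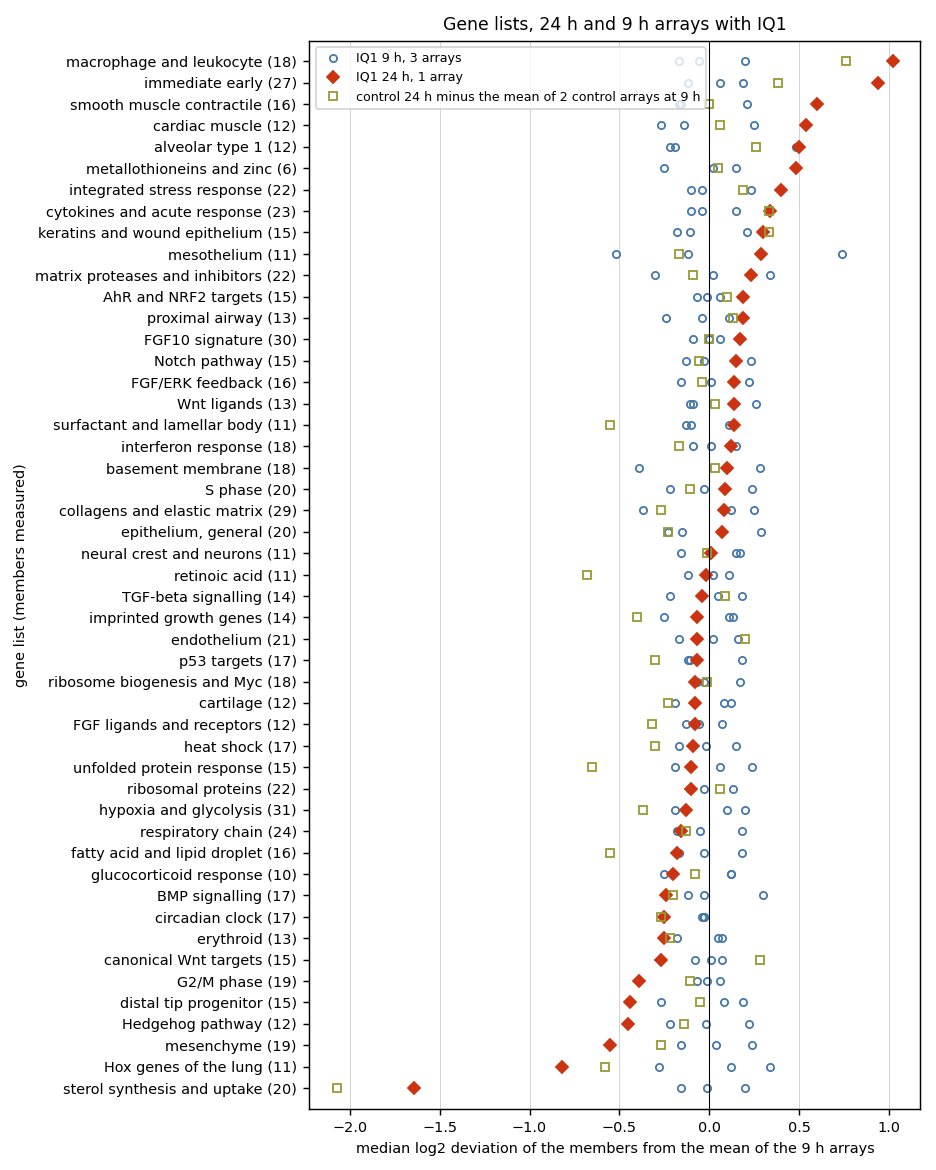
Median log2 deviation of the members of 49 gene lists (y axis, members measured in parentheses) from the mean of the 9 h arrays (x axis), for the 3 IQ1 arrays at 9 h (circles), the IQ1 array at 24 h (diamonds) and the 24 h minus 9 h difference in controls (squares). Sterol synthesis at -1.64 and macrophage genes at 1.02 are the ends of the order, and most lists lie within 0.5 of 0.

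Across the 50 lists, the median of the 24 h array lay outside the 3 arrays at 9 h in 25, 12 of them below and 13 above. Of all single genes, 29.2% lay above all 3 arrays and 30.1% below. The count of lists is thus not above that background and does not set the lists apart. In 9 lists it differed by 0.5 or more. The other 41 lay between -0.45 and 0.48. Among these, the ribosomal proteins (-0.10), the respiratory chain (-0.16) and heat shock (-0.09) lay within the medians of the 9 h arrays. The lists of the distal tip (-0.44) and of G2 and mitosis (-0.39) lay below those medians, and the integrated stress response (0.40) above.

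Red cell transcripts gave a contrast between near-identical genes. Hbb-b1, an adult β-globin, read 12.77, 12.87 and 12.54 at 9 h and 9.19 at 24 h, while Hbb-bt, another adult β-globin, read 10.31, 9.65 and 8.78 against 11.74. In controls Hbb-b1 differed by -2.35 and Hbb-bt by 2.35. The embryonic globins Hbb-y (-0.25) and Hbb-bh1 (0.29), and Hba-a1 (-0.26), lay within their 9 h ranges. Hba-x, the embryonic zeta globin, read 11.52, 12.52 and 12.53 against 11.48, just below replicate 1, and Slc4a1, the band 3 anion exchanger, was at -1.97. Sequences this alike may share signal on one probe, so the level of either β-globin is uncertain. Why Hbb-b1 and Hbb-bt differed in opposite directions, both with IQ1 and in controls, was not tested. Hemgn lay near the top of the scale, at 15.71, 15.98 and 15.99 against 15.99, and gives no usable difference.

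Sex-linked genes differed among the 9 h arrays. Eif2s3y read 10.18, 5.78 and 6.37 at 9 h and 8.85 at 24 h, and Uty 8.12, 3.72 and 3.89 against 6.29. Xist, transcribed from the inactive X, read 11.99, 13.86 and 13.76 against 13.66. Replicate 1 therefore stood apart from replicates 2 and 3 in these 3 transcripts, and the pooled 24 h array lay between them for Eif2s3y and Uty. Kdm5d, also Y-linked, did not follow this, with 12.52, 13.58 and 13.23 against 13.45 and replicate 1 lowest. The part of this in other results was not tested, but the sterol group had 19 of 20 members below the 9 h arrays when replicate 1 was left out as well, and the immediate early group 19 of 27 above.

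The last question was how far the difference between 24 h and 9 h was shared by explants without IQ1. Both pairs of time points come from the same 2 experiments but share no array. Across the 12152 brighter genes the difference with IQ1 and that in controls had a Pearson r of 0.71, and across all 24304 genes 0.51, as a description over genes that share the platform, the experiments and the normalization. Of the 116 brighter genes at least 1 log2 unit above the 9 h range with IQ1, 110 also had the 24 h control above both its 9 h arrays, 66 of them by at least 1 log2 unit. Of the 192 below, 176 were below both in controls, 79 by at least 1 log2 unit.

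Several leading genes differed by nearly the same amount in both. Slc25a17 was at 3.71 with IQ1 and 3.67 in controls, Cwc22 at -3.49 and -3.87, Sycp1 at -4.95 and -4.63, Gatm at -2.55 and -2.50, Myo6 at -2.34 and -2.22, and Mgmt at 2.15 and 2.30. The sterol group was lower in controls too, with a median of -2.07, and 18 of its 20 members were lower in both, the exceptions being Mvk and Ebp. The macrophage group was at 0.76 in controls, and the Hox genes at -0.58.

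**Figure D5:**
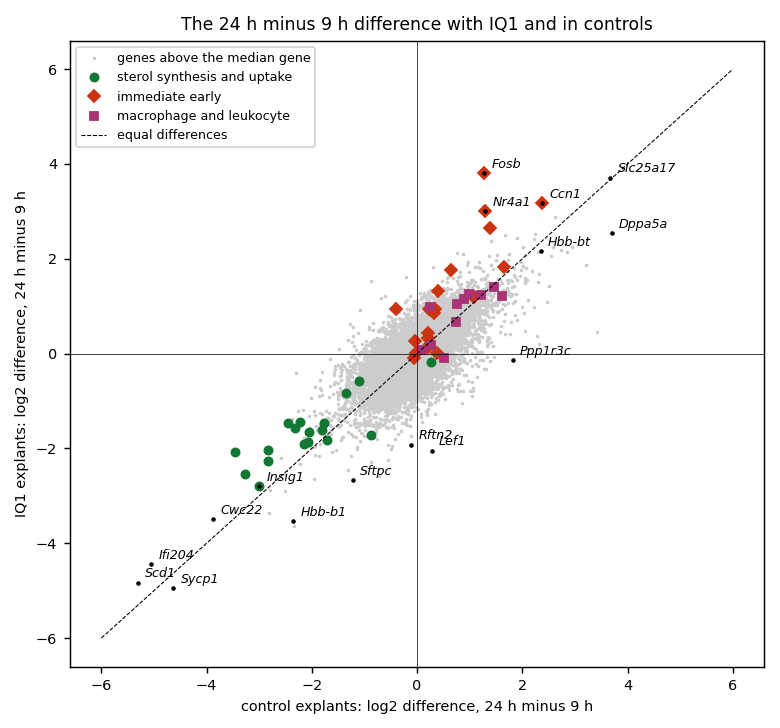
The log2 difference between 24 h and 9 h with IQ1 (y axis) against that in controls (x axis), for the 12152 genes above the median gene (grey) and for 3 gene lists (coloured). Most named genes lie near the dashed line of equal differences, while Fosb, Nr4a1, Lef1, Sftpc, Rftn2 and Ppp1r3c lie off it.

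The difference between both changes was tested as an interaction in limma over 7 arrays. At an adjusted p under 0.05, 0 of 24304 genes passed, with a smallest adjusted p of 1.00, and 990 genes (4.07%) had an unadjusted p under 0.05. The values that follow are therefore descriptions. Fosb was at 3.81 with IQ1 and 1.28 in controls, the changes differing by 2.53 ± 0.60 (unadjusted p = 0.00527), and Nr4a1 at 3.00 and 1.30. Of the 27 immediate early genes, 22 had the larger value with IQ1 and 6 an unadjusted p under 0.05, and their median was 0.94 with IQ1 and 0.38 in controls. Of the 20 sterol genes, 0 had an unadjusted p under 0.05.

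Among genes brighter than the median gene, the others with the highest interaction statistics were Cyp26b1, which degrades retinoic acid (0.56 with IQ1 and -1.21 in controls), Srxn1, an antioxidant enzyme (1.22 and -0.61), and Gm19665 (1.07 and -0.42). Those with the lowest, again among the brighter genes, were Ppp1r3c, a glycogen-targeting phosphatase subunit, which read 7.43, 7.63 and 7.51 against 7.39 with IQ1 and differed by 1.82 in controls, Mia, a secreted protein of cartilage (-0.79 and 1.06), Zcchc4 (-0.80 and 0.88), Rftn2 (-1.92 and -0.11) and Usp45 (-1.43 and 0.10). Lef1 was at -2.05 with IQ1 and 0.28 in controls, where it read 8.79 at 24 h, and the changes differed by -2.33 ± 0.68 (unadjusted p = 0.0133). Sftpc was at -2.67 and -1.22, differing by -1.45 ± 0.43 (unadjusted p = 0.0145). All of these had an adjusted p of 1.00.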

How the data were processed

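RNA of whole E12.5 lung explants was hybridised to Agilent mouse arrays of 1 colour, after Ovation PicoSL amplification per the labels, which give Cy5 as the dye where the methods give Cy3. The authors deposited background-corrected (NormExp), quantile-normalized log2 intensities of 62976 spots on 8 arrays; the submitters' processing notes name limma, and scanner files were not used here. Spots were named through accession, symbol or synonym, 19035 spots without a name and 8 with a missing value were left out, and the brightest spot by mean over the 8 arrays stood for each of 24304 genes. The number of arrays limits the precision, and nothing says that arrays of a group came from separate cultures, so p-values cover the spread between these arrays only.

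The single 24 h array was set against the 3 arrays at 9 h in limma 3.58.1 (R 4.3.3; lmFit, eBayes, two-sided, Benjamini-Hochberg over all genes, threshold 0.05). The interaction with time in controls used 7 arrays. Control replicate 2 at 9 h was left out. The fit was tested on simulated data. Named were the 12 highest and 12 lowest statistics among genes above the median gene mean of 6.72, up to 5 members of each list with the largest difference, cell type markers and the 5 highest and 5 lowest interaction statistics among genes above that mean. Other list members were named after their values were seen. Members and lists were chosen with earlier results of these data known. Promoters and motifs came from a RefSeq table of build GRCm38.p6. Alternatives were a filter on dim genes, the mean of all spots, centring, a trended robust prior, 7 or 8 arrays sharing the spread, and leaving out each replicate.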

Additional observations from a re-analysis of the deposited data

Results flagged for a closer look

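The median difference between 24 h and 9 h had opposite signs with IQ1 and in controls in 14 of 50 gene lists, taken at 2 decimals. In 2 of these, described here, the list's median on the 24 h array also lay outside its medians on the 9 h arrays both with IQ1 and in controls, on opposite sides. The difference between the lists' medians was not tested. The surfactant and lamellar body list (11 genes) had a median of 0.14 with IQ1, where single 9 h arrays lay between -0.13 and 0.11, and of -0.55 in controls. The median over its genes of the difference between both changes was 0.18. Leaving out IQ1 replicate 1 or 2 at 9 h turned the sign of the IQ1 median, to -0.06 and -0.08, and so did the mean of all spots of a gene, to -0.04. Sftpc, at -2.67, belongs to this list and lay on the other side of its IQ1 median. Of the 11 genes, 5 were brighter than the median gene. These were Scd1 at -4.84, Sftpc, Lpcat1 at -0.37, Lamp3 at -0.18 and Cpm at 0.08. The positive IQ1 median therefore rested on genes dimmer than the median gene.

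The canonical Wnt targets (15 genes) had a median of -0.27 with IQ1, where single 9 h arrays lay between -0.08 and 0.07, and of 0.28 in controls. The median of the difference between both changes was -0.48. Lef1 was the member farthest from 0 with IQ1, at -2.05.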

How the results depend on the processing

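With 1 array at 24 h, the count of calls depended on the variance model. At an adjusted p under 0.05 limma called 0 genes higher and 0 lower, but 1 higher and 6 lower with dim genes left out, 21 higher and 33 lower with an intensity trend and robust prior, and 1 higher and 1 lower with 7 arrays sharing the spread; the cause was not tested. It called 0 with the mean of spots, centred arrays, all 8 arrays, and 0 to 0 when a 9 h replicate was left out. The interaction gave 0 calls in every alternative run. In settings chosen after seeing the data, the genes at least 1 log2 unit above the 9 h range numbered 428 with the mean of spots, 473 with centred arrays and 789 to 1287 without 1 replicate, and those below 341, 511 and 609 to 845. Replicate 2 moved both counts by over 1.5 times, to 1287 and 845, as a range of fewer arrays is narrower. Of 2295 differences of 255 named genes, 2272 kept their sign. The other 23 belonged to 19 genes, 0 of them among the leading 24. Of 300 medians of 50 lists, 41 moved by 1 SD or more. No paired analysis was possible because the groups compared share fewer than 2 replicate numbers.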

Other observations

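Several cell types and pathways not described above differed in single genes only. Among 21 endothelial genes, of which 6 were brighter than the median gene, Sox7 differed by -1.36 and Egfl7 by -1.12 between 24 h and 9 h with IQ1, while the defining markers Pecam1, Cdh5 and Kdr differed by 0.16, -0.46 and -0.20. Sox7 and Kdr were dimmer than the median gene. Of the interferon response genes, Usp18 differed by 2.05, Ifit1 by 1.58 and Ifit3 by 1.30, and these 3 were dim as well. In the p53 list Pmaip1 and Btg2, which are known to promote cell death and to restrain growth, were dim and at 1.36 and 1.26, and Bbc3 at -1.13. The neuronal genes Stmn2 and Tubb3 were at -1.54 and -1.46, and the cartilage collagens Col9a1 and Col2a1 at -1.25 and -0.71.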
